A study of Mus musculus with 27 samples.

Results

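The genes described here write, erase and read DNA methylation: the methyltransferases Dnmt1, Dnmt3a and Dnmt3b, the dioxygenases Tet1, Tet2 and Tet3, the glycosylase Tdg and the methyl-CpG reader Mbd2. They were chosen by symbol, by a rule that uses no measured value but was written with earlier results of these data known, and each had 1 row in a count table of 22340 genes, so 8 of 22340 rows were taken. Total RNA was sequenced from the cortex of C57BL6 mice aged 7 to 8 weeks after transient occlusion of the middle cerebral artery (MCAO), a filament model of ischemic stroke. The right artery was blocked for 35 min and then reopened for 3, 6, 12 or 24 h. The ipsilateral cortex, on the blocked side, and the contralateral cortex gave 3 libraries each per time, and 3 libraries came from sham mice that had anesthesia and arterial exposure without a filament, which makes 27 libraries in 9 groups. Replicates 1 to 3 came from mice operated on different days, per the series' design text. Which hemisphere the sham cortex came from, when it was collected, and whether both sides came from the same mouse are not stated in the sources used here. Isoflurane anesthesia was common to all groups, and MCAO mice were kept only where laser Doppler flowmetry showed both the block and the return of blood flow.

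DNMT1 mainly copies an existing methylation pattern onto the new strand when DNA is replicated, while DNMT3A and DNMT3B can methylate sites that carried no mark. TET enzymes oxidize methylated cytosine with iron and 2-oxoglutarate, TDG cuts out the further oxidized bases so that base excision repair can restore an unmarked cytosine, and MBD2 binds methylated CpG and brings in the NuRD deacetylase and remodelling complex. Neurons do not divide, yet they keep DNMT1, DNMT3A and TET proteins, and the Dnmt3 and Tet genes are known targets of the miR-29 microRNA family.

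Because that family links most of these genes, its sequences and their matches in the 3' untranslated regions (UTRs) are shown first. The mature microRNAs are from RefSeq (GRCm38.p6), with the seed, bases 2 to 8, in capitals. All 3 share the seed AGCACCA. They are encoded in a cluster on chromosome 6, with miR-29a-3p at chr6:31062673-31062694 and a copy of miR-29b-3p at chr6:31063025-31063047 on the minus strand. A cluster on chromosome 1 holds the other copy of miR-29b-3p at chr1:195037091-195037113 and miR-29c-3p at chr1:195037600-195037621 on the plus strand.
mmu-miR-29a-3p: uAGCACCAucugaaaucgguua
mmu-miR-29b-3p: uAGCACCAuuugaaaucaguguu
mmu-miR-29c-3p: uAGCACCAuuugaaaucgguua
The sense strand of each UTR, as in the RNA, was searched for TGGTGCTA (8mer), TGGTGCT (7mer-m8) and GGTGCTA (7mer-A1). Each site was counted under the longest form only. The following are the 8mer sites, 30 bases each, with the match in capitals, from the mm10 genome and the longest UTR of each gene in GENCODE release M21. They are shown because they are the longest matches and lie in 5 of the 8 genes, both in genes that differed after stroke and in genes that did not pass the test.
Tet3, UTR base 3699: agtctaataaaTGGTGCTAtggtgtttcaa
Tet3, UTR base 4258: ccgcttttagtTGGTGCTAaacttctccct
Tdg, UTR base 957: tgcattttccaTGGTGCTAcagacagcctg
Dnmt3a, UTR base 3658: ggggaggtagcTGGTGCTAgcaccagggtc
Dnmt3a, UTR base 3727: gggtcccaagcTGGTGCTAattcctctcat
Tet2, UTR base 557: ttaacattaaaTGGTGCTAcaaatggtgtt
Tet2, UTR base 1614: tcacatcacgaTGGTGCTAcccagattgct
Tet1, UTR base 6483: cttgaaggagaTGGTGCTAgctgaacaatt
The printed windows of Tet3 lie at chr6:83364325-83364354 and chr6:83363766-83363795 on the minus strand. That of Tdg lies at chr10:82649666-82649695 and those of Dnmt3a at chr12:3911394-3911423 and chr12:3911463-3911492, all on the plus strand. Those of Tet2 lie at chr3:133466162-133466191 and chr3:133465105-133465134 and that of Tet1 at chr10:62806031-62806060, all on the minus strand.

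The genes themselves lie at chr9:20907209-20959888 (Dnmt1, minus strand), chr12:3806007-3914443 (Dnmt3a, plus), chr2:153649450-153687730 (Dnmt3b, plus) and chr10:62804570-62908996 (Tet1, minus). Tet2 lies at chr3:133463679-133545139 and Tet3 at chr6:83362373-83459084, both on the minus strand, and Tdg at chr10:82629828-82650799 on the plus strand.

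Tet3 held 10 sites in a UTR of 5669 bases, Tet1 held 8 in 7962 bases, Dnmt3a held 6 in 6696 bases and Tet2 held 5 in 3058 bases. Tdg held 3 in 2079 bases and Dnmt3b held 2, neither of them an 8mer, in 1331 bases. The short UTRs of Dnmt1 (312 bases) and Mbd2 (480 bases) held none, which says only that these letters are not in them. Of 15557 tested genes with an annotated 3' UTR, 18.4% held at least 1 site and 3.24% held an 8mer. Only 13 genes, or 0.0836%, held 5 or more, and 4 of these 13 were Dnmt3a, Tet1, Tet2 and Tet3. Long UTRs hold more matches, so each gene was set beside genes whose UTR length was within 20% of its own. As many sites as Tet3 were found in 0.161% of 620 such genes, as many as Tet2 in 0.0542% of 1845, as many as Tet1 in 0.418% of 239, and as many as Dnmt3a in 0.735% of 408, each count including the gene itself. Since the Dnmt3 and Tet genes are known miR-29 targets, these shares describe their UTRs and are no test of enrichment. A seed match is a description of letters, and binding was not measured here.

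**Figure D1:**
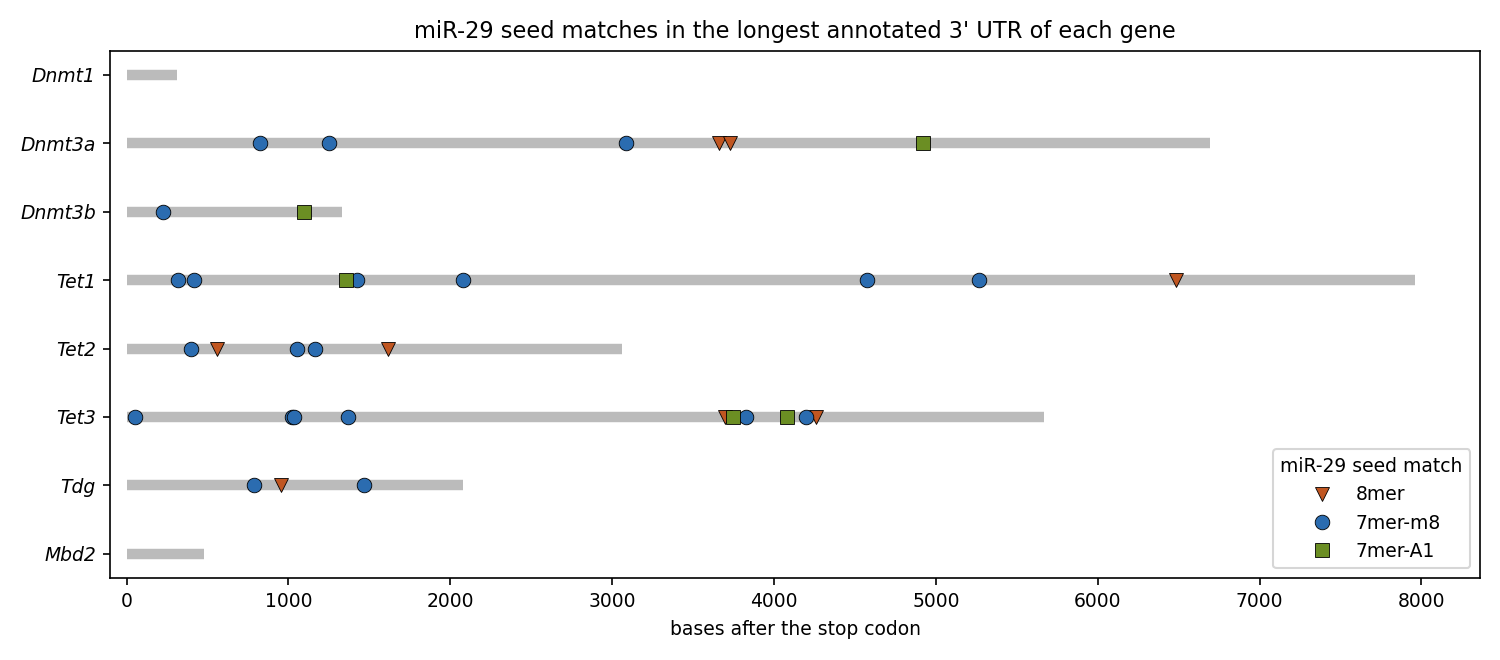
Positions of miR-29 seed matches along the longest annotated 3' UTR of each of the 8 genes, in bases after the stop codon, with grey bars for the UTR and symbols for the kind of match. Tet3 carries 10 matches and Tet1 carries 8, while the short UTRs of Dnmt1 and Mbd2 carry none.

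Each library held 26505996 to 48830897 counts, and levels are given in CPM, which are counts scaled to a common library total, here with the trimmed mean of M-values (TMM). All 8 genes passed the filter on low counts, which left 18087 genes for the tests. 2 libraries stood apart on technical measures. In contralateral replicate 1 at 3 h, log2 CPM varied with the GC content of genes over a range of 1.01, against at most 0.345 in the other libraries. Ipsilateral replicate 1 at 24 h had 40.4% of its counts on the mitochondrial ribosomal RNAs, the highest share of all 27 libraries, and the lowest was 24.4%.

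In the sham cortex Dnmt1, Mbd2 and Dnmt3a were the most abundant of the 8 per length of transcript. Per kilobase of the longest annotated transcript, Dnmt1 stood at 10.8 ± 0.339 CPM (SD, n = 3), Mbd2 at 9.84 ± 1.03 and Dnmt3a at 9.70 ± 0.569, and neighbours in this order differed by less than the larger of their SDs. Tet3 at 5.67 ± 0.57, Tdg at 5.53 ± 0.637 and Tet2 at 5.13 ± 0.34 CPM per kilobase formed a middle level, in which neighbours again differed by less than the larger SD. Tet1 was lower at 1.09 ± 0.0242 CPM per kilobase. Dnmt3b, which is known mainly from early development, was lowest at 0.212 ± 0.0462 CPM per kilobase and rested on only 22 to 69 counts per library. The order depends on the transcript length taken for each gene.

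**Figure D2:**
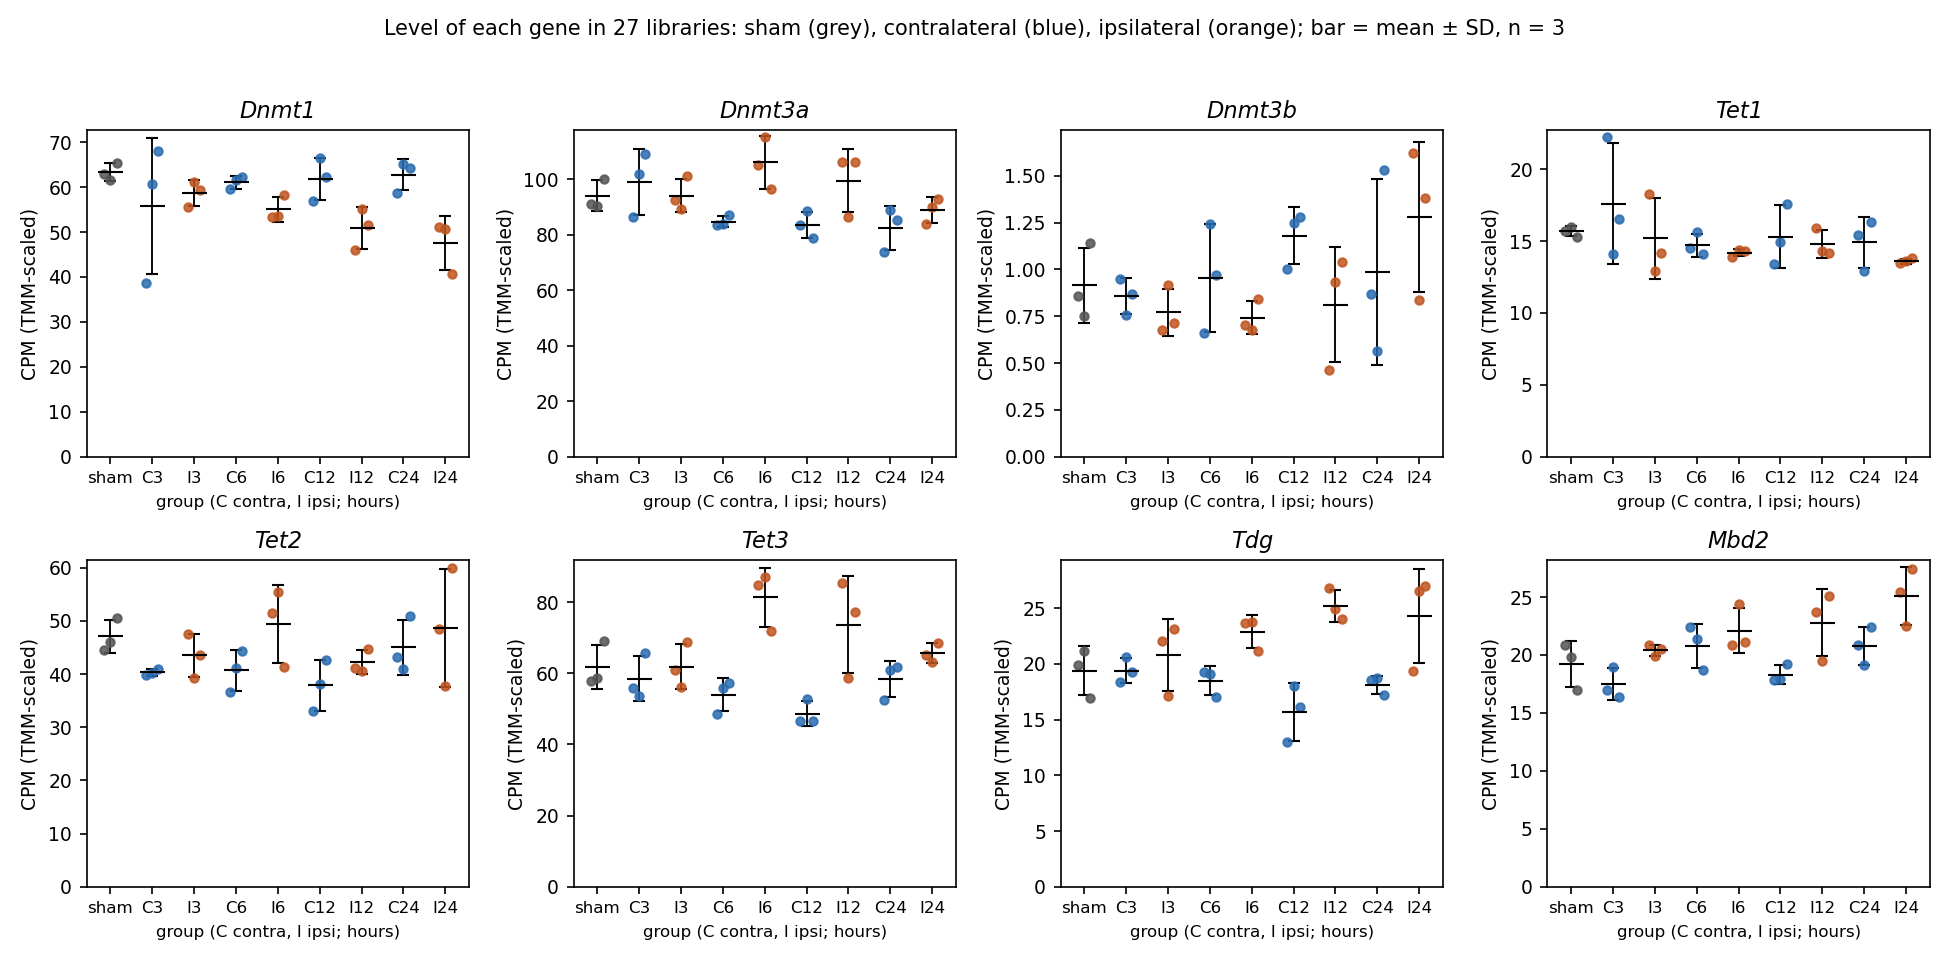
Level of each gene in CPM (vertical axes from 0) in the 27 libraries, by group along the horizontal axis, with sham in grey, contralateral (C) in blue and ipsilateral (I) in orange, the number being the hours of reperfusion, and bars for the mean ± SD of 3 libraries. The ipsilateral libraries of Tet3 at 6 and 12 h and of Tdg at 12 h all lie above the contralateral ones, and those of Dnmt1 at 24 h all lie below.

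The first question was how the blocked side differed from the other side at each time. Tet3 was higher on the blocked side at 6 and 12 h and Tdg at 12 h, by 1.50- to 1.60-fold, and these 3 differences were called whichever library was left out. At 24 h Tdg was higher and Dnmt1 lower by smaller amounts that depended on single libraries. In edgeR's quasi-likelihood test, with p-values adjusted by the Benjamini-Hochberg method over all 18087 genes, 0 of the 8 genes passed an adjusted p of 0.05 at 3 h, where 0.249% of all genes did. None of the 8 had an unadjusted p under 0.05 at 3 h, and DESeq2 also called 0. At 6 h 1 of 8 rose and none fell, against 7.99% of all genes called, 5.85% rising and 2.14% falling. At 12 h 2 of 8 rose and none fell, against 12.2% of all genes, 7.94% rising and 4.30% falling. At 24 h 1 rose and 1 fell, against 19.1% of all genes, 9.74% rising and 9.36% falling. With 8 genes these counts lie within 1 or 2 genes of the background share and are no result about the set, so the genes are described singly. Where libraries of the groups are said not to overlap, this describes the values only. How often groups do not overlap among all genes was not counted, so it adds no support to a difference. The median log2 difference of the 8 was 0.08 at 3 h, 0.18 at 6 h, 0.20 at 12 h and 0.14 after 24 h. Over all tested genes the medians at these times were 0, -0.02, -0.01 and 0.03.

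**Figure D3:**
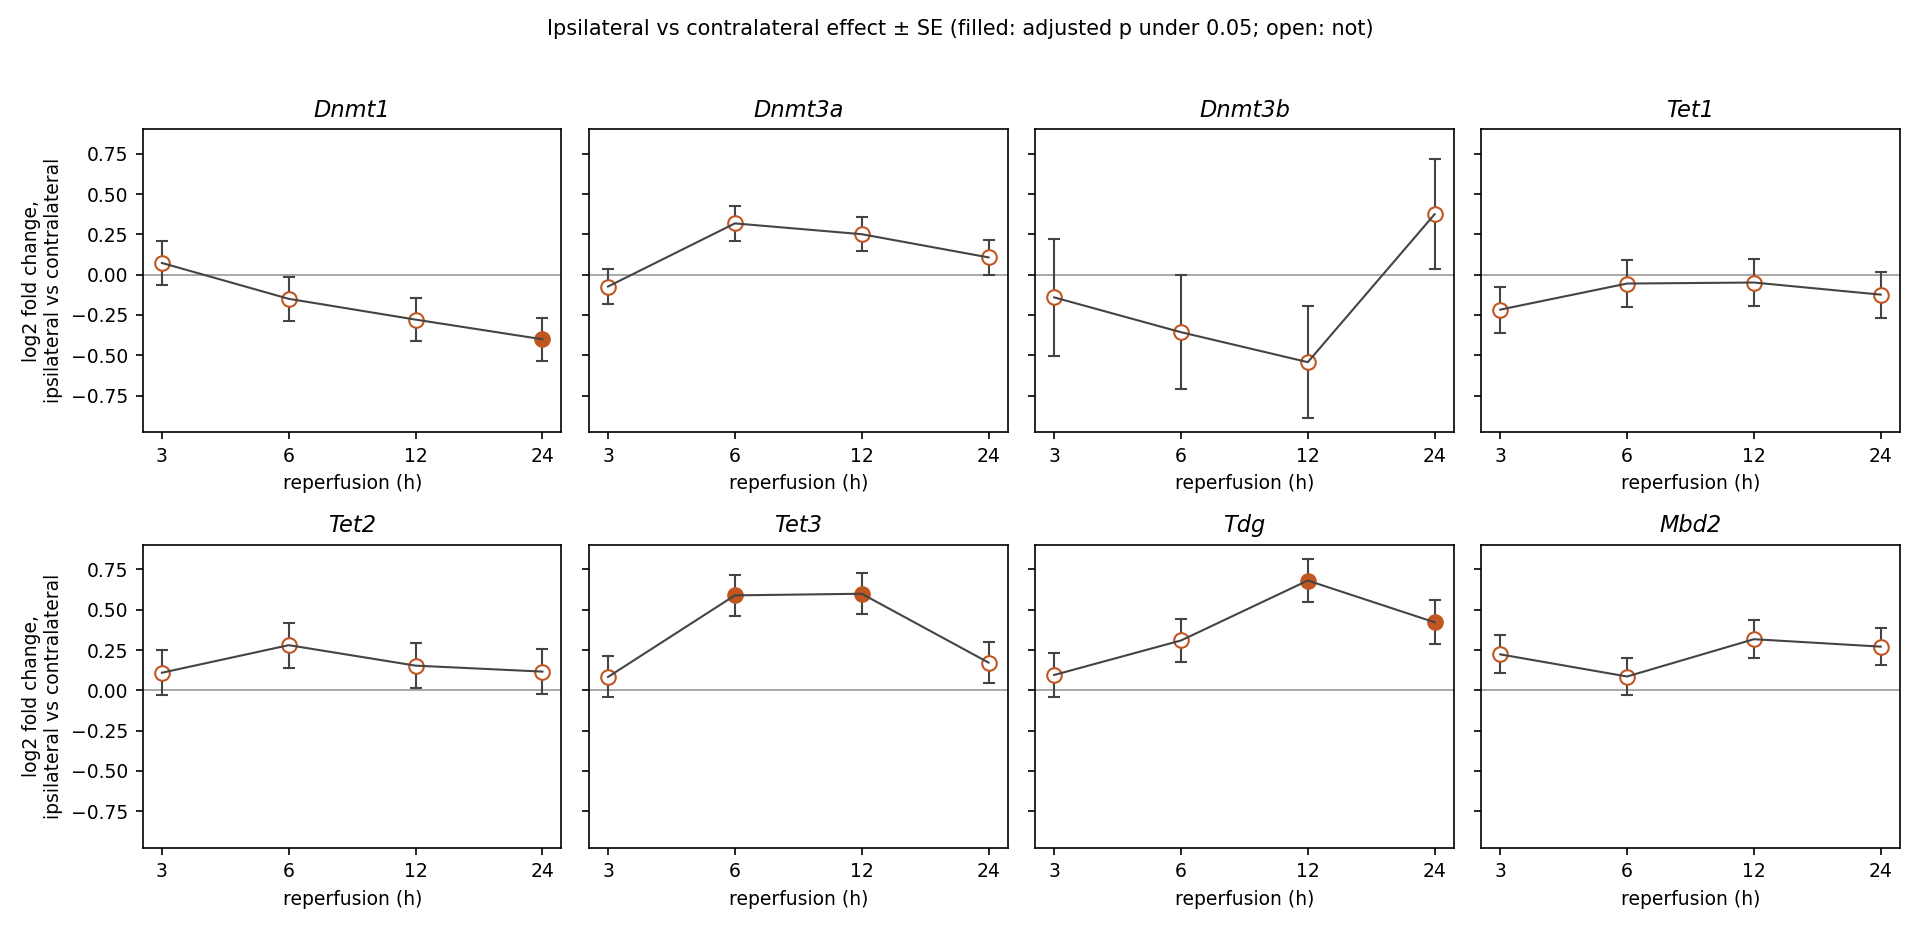
Log2 fold change of the ipsilateral over the contralateral cortex ± SE (vertical axis) against reperfusion time in hours for each gene, with filled points where the adjusted p was under 0.05. Tet3 reaches 0.59 at 6 h and 0.60 at 12 h, Tdg reaches 0.68 at 12 h, and Dnmt1 is at -0.40 at 24 h, while Tet1 and Tet2 have no filled point.

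Tet3, which encodes a TET enzyme studied in neurons and in the zygote, had the highest sham mean per kilobase of the 3 Tet genes. At 6 h its contralateral libraries stood at 48.7, 55.9 and 57.4 CPM and its ipsilateral libraries at 84.8, 87.1 and 71.9 CPM. All ipsilateral libraries were above all contralateral ones, and they were also above the sham libraries at 57.7, 58.7 and 69.0 CPM. Tet3 rose by a log2 fold change of 0.59 ± 0.13 (SE), or 1.50-fold (adjusted p = 0.00347). At 12 h the contralateral libraries stood at 46.6, 52.7 and 46.7 CPM and the ipsilateral ones at 85.4, 58.7 and 77.1 CPM. The groups again did not overlap, although ipsilateral replicate 2 came near the contralateral level and inside the sham range. The difference was 0.60 ± 0.13, or 1.51-fold (adjusted p = 0.00223). Both calls remained without any 1 of the 6 libraries compared, with log2 values of 0.52 to 0.67 at 6 h and 0.48 to 0.73 at 12 h. At 3 h the difference was 0.08 ± 0.13 (adjusted p = 0.857) and at 24 h 0.17 ± 0.13 (adjusted p = 0.367), although the 24 h groups did not overlap, at 52.5, 60.8 and 61.8 against 65.2, 63.3 and 68.6 CPM. A test of whether the side difference itself changed between times gave an unadjusted p of 0.00945 and an adjusted p of 0.154 for Tet3, so the times were not shown to differ. Per kilobase, Tet3 made up 47.6% ± 1.24 (SD, n = 3) of the summed Tet1, Tet2 and Tet3 level in sham cortex, 54.0% ± 0.731 in the ipsilateral cortex at 6 h and 54.3% ± 4.28 at 12 h, beside 47.6% ± 0.319 and 46.3% ± 3.61 on the other side.

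Tdg, the glycosylase that acts after the TET enzymes, had its largest difference at 12 h. Its contralateral libraries stood at 13, 18.0 and 16.1 CPM and its ipsilateral libraries at 26.8, 24.9 and 24.0 CPM. The ipsilateral libraries were well clear of the contralateral ones and above the sham libraries at 19.9, 21.2 and 16.9 CPM. Tdg rose by 0.68 ± 0.14, or 1.60-fold (adjusted p = 0.00134), and the call remained without any 1 library, at 0.55 to 0.79. At 24 h the contralateral libraries stood at 18.6, 18.7 and 17.2 CPM and the ipsilateral ones at 19.4, 26.5 and 27 CPM. They did not overlap, but ipsilateral replicate 1, the library rich in mitochondrial ribosomal RNA, was only just above the contralateral ones. The 24 h rise was 0.42 ± 0.14 (adjusted p = 0.0282). It was lost without contralateral replicate 1 (adjusted p = 0.0724), 2 (0.0648) or 3 (0.0938) or ipsilateral replicate 2 (0.12) or 3 (0.131), and in a fit of only the groups compared (0.0725). At 6 h the groups did not overlap, and the difference was 0.31 ± 0.14 (adjusted p = 0.168). Exons of Tdg overlap those of Glt8d2 on the opposite strand over 367 bases, and since the strand setting of the counting is not given, reads of the 2 genes there cannot be told apart. Glt8d2 differed by -0.33 ± 0.17 at 12 h (adjusted p = 0.233), opposite in sign to Tdg.

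Dnmt1, the maintenance methyltransferase, was the 1 gene of the 8 that fell on the blocked side. At 24 h its contralateral libraries stood at 58.7, 65.1 and 64.2 CPM and its ipsilateral libraries at 51.1, 50.7 and 40.6 CPM. The groups did not overlap, and the sham libraries at 63.0, 61.5 and 65.4 CPM lay with the contralateral ones. Dnmt1 fell by 0.40 ± 0.14 on the log2 scale, a fold of 0.757 (adjusted p = 0.0366). The call was lost without contralateral replicate 1 (adjusted p = 0.0527), 2 (0.107) or 3 (0.0864) or ipsilateral replicate 3 (0.186), the lowest library, while the value kept its sign at -0.47 to -0.30. In bulk tissue fewer cells that carry an RNA and less of it per cell cannot be told apart. At 12 h the groups did not overlap either, at 56.8, 66.4 and 62.2 against 45.9, 55.2 and 51.6 CPM, and the difference was -0.28 ± 0.14 (adjusted p = 0.184). At 3 h Dnmt1 was spread from 38.7 to 68.0 CPM on the contralateral side, the lowest value being that of replicate 1, which stood apart in its GC trend. The 3 h difference of 0.07 ± 0.14 turned to -0.13 without that library. The change of the side difference from 3 to 24 h was -0.47 ± 0.19 (adjusted p = 0.154). It was -0.27 without contralateral replicate 1 at 3 h (adjusted p = 0.315) and -0.67 without replicate 3 there (adjusted p = 0.0408).

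Dnmt3a, the methyltransferase best known for new methylation in neurons, stood at 83.3, 84.0 and 86.9 CPM in the contralateral cortex at 6 h and at 105, 115 and 96.6 CPM in the ipsilateral cortex. The groups did not overlap, but the difference of 0.32 ± 0.11 had an adjusted p of 0.0643. It passed in 6 of 11 other ways of processing, with values of 0.31 to 0.34 over all 11, and also without ipsilateral replicate 3 (0.38, adjusted p = 0.0416). At 12 h the ipsilateral libraries at 106, 86.4 and 106 CPM overlapped the contralateral ones at 83.3, 88.4 and 78.8 CPM, and the difference was 0.25 ± 0.11 (adjusted p = 0.128). At 3 and 24 h the differences were -0.07 ± 0.11 and 0.11 ± 0.11, neither past the test. Per kilobase, Dnmt3a made up 46.9% ± 0.672 of the summed methyltransferase level in sham and 53.3% ± 3.35, 53.6% ± 5.04 and 52.3% ± 4.25 in the ipsilateral cortex at 6, 12 and 24 h, beside 45.1% ± 0.496, 44.4% ± 1.89 and 43.8% ± 1.15 on the other side. At 3 h the order was opposite, with 48.9% ± 2.13 on the ipsilateral and 51.8% ± 4.17 on the contralateral side. At 24 h the ipsilateral level of Dnmt3a per kilobase was 9.18 ± 0.488 CPM, below the sham mean, and that of Dnmt1 was 8.09 ± 1.02 CPM, so the higher share at that time goes with the lower Dnmt1. A short antisense gene, Dnmt3aos, overlaps exons of Dnmt3a over 133 bases and was itself counted at only 11 to 49 reads per library. Gm42567 shares 43 exonic bases with Tet2.

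Mbd2 stood at 17.8, 17.9 and 19.2 CPM in the contralateral cortex at 12 h and at 23.7, 19.5 and 25.1 CPM in the ipsilateral cortex. These groups did not overlap, nor did those at 24 h, at 20.9, 19.1 and 22.4 against 25.4, 22.5 and 27.4 CPM. The differences of 0.32 ± 0.12 at 12 h (adjusted p = 0.0744) and 0.27 ± 0.12 at 24 h (adjusted p = 0.103) missed the threshold. At 3 h the groups did not overlap either, with a difference of 0.22 ± 0.12 (adjusted p = 0.51). At 6 h they overlapped, with a difference of 0.09 ± 0.12 (adjusted p = 0.712). Of the genes that did not pass at any time, Tet2 was at 36.6, 41.2 and 44.3 CPM on the contralateral side and 51.4, 55.5 and 41.3 CPM on the ipsilateral side at 6 h, so the groups overlapped. Its difference was 0.28 ± 0.14 (adjusted p = 0.232). Tet1 held between 12.9 and 18.3 CPM in 26 of the 27 libraries and was at 22.2 CPM in contralateral replicate 1 at 3 h. Its side differences ran from -0.22 to -0.05, with a 95% interval of -0.35 to 0.24 at 6 h and -0.34 to 0.24 at 12 h, which excludes a rise of the size fitted for Tet3. Dnmt3b ranged from 0.465 to 1.62 CPM with differences of -0.54 ± 0.35 at 12 h and 0.38 ± 0.34 at 24 h, so changes of the size seen in Tet3 were not detectable at this depth.

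Averaged over the 4 times, the side difference rests on more libraries. Here 4 of the 8 genes rose and 1 fell, against 33% of all tested genes called, 17.7% rising and 15.3% falling. Tdg rose by 0.38 ± 0.07 (adjusted p = 9.97e-05), Tet3 by 0.36 ± 0.06 (adjusted p = 7.21e-05) and Mbd2 by 0.22 ± 0.06 (adjusted p = 0.00399), and these 3 calls remained without any 1 of the 24 libraries from mice with a stroke. Dnmt3a rose by 0.15 ± 0.05 (adjusted p = 0.0308) and Dnmt1 fell by 0.19 ± 0.07 (adjusted p = 0.0311). Tet2 was at 0.16 ± 0.07 (adjusted p = 0.0683). It passed with the replicate number as a block (0.0492), with that block and a GC offset (0.0369) and with a filter of at least 1 CPM (0.0481). It also passed without contralateral replicate 3 at 12 h (0.0455) or 24 h (0.0393), ipsilateral replicate 3 at 6 h (0.0305) or ipsilateral replicate 2 at 24 h (0.0179). The mean of Tet1 was -0.11 ± 0.07 and that of Dnmt3b -0.17 ± 0.18, and neither passed.
The call of Dnmt1 was lost without contralateral replicate 2 at 3 h (adjusted p = 0.0614), 6 h (0.0501), 12 h (0.0657) or 24 h (0.0549), or replicate 3 at 3 h (0.0821). It was also lost without ipsilateral replicate 1 at 3 h (0.053), 6 h (0.0527) or 12 h (0.0669), replicate 2 at 6 h (0.0543) or replicate 3 at 24 h (0.0698). That of Dnmt3a was lost without contralateral replicate 1 (0.0563) or 3 (0.0574) at 12 h or replicate 1 at 24 h (0.0707). It was also lost without ipsilateral replicate 3 at 3 h (0.0637), replicate 2 at 6 h (0.0746), replicate 1 (0.0648) or 3 (0.0598) at 12 h, or replicate 2 (0.0505) or 3 (0.0542) at 24 h. For none of the 8 genes was the side difference shown to depend on time, against 1.34% of all genes. Tet3 and Tdg alone had an unadjusted p under 0.05 in that test, and DESeq2 also called 0. Between 3 and 24 h 0 of 8 changed their side difference, against 3.32% of all genes, with 1 unadjusted p under 0.05 and 0 calls by DESeq2.

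The second question was how each side differed from sham cortex. These comparisons share the 3 sham libraries with each other, and the ipsilateral libraries with the comparison of sides, so their values are given beside those above and not as a second line of evidence. The ipsilateral cortex differed from sham in 0 of the 8 genes at 3, 6 and 12 h, where 0.243%, 6.11% and 10.3% of all genes were called. At an unadjusted p under 0.05 there were 0, 1 and 3 genes, and DESeq2 called 0, 1 and 1. At 24 h 1 rose and 1 fell, against 22.2% of all genes, 11.3% rising and 10.9% falling.
Tet3 at 6 h was 0.40 ± 0.13 above sham (adjusted p = 0.0592, and 0.0439 with the replicate block), and at 12 h 0.26 ± 0.13 above it (adjusted p = 0.208). Tdg at 12 h was 0.38 ± 0.14 above sham (adjusted p = 0.0706). Thus the ipsilateral mean of Tet3 at 12 h was 73.7 ± 13.7 CPM, the sham mean 61.8 ± 6.22 and the contralateral mean 48.7 ± 3.52 CPM (SD, n = 3), with sham in between. For Tdg the same means were 25.2 ± 1.43, 19.4 ± 2.23 and 15.7 ± 2.57 CPM.
At 24 h Dnmt1 fell against sham by 0.41 ± 0.14 (adjusted p = 0.0277) and Mbd2 rose by 0.38 ± 0.12 (adjusted p = 0.0188), with ipsilateral libraries of Mbd2 at 25.4, 22.5 and 27.4 CPM against 20.9, 19.8 and 17.0 CPM in sham. The call of Dnmt1 was lost without sham replicate 1 (adjusted p = 0.0678), 2 (0.0576) or 3 (0.0823) or ipsilateral replicate 3 (0.161), and that of Mbd2 without sham replicate 3 (0.1) or ipsilateral replicate 3 (0.089). Tdg at 24 h was 0.33 ± 0.14 above sham (adjusted p = 0.0808), and 0.46 without ipsilateral replicate 1 (adjusted p = 0.0217).

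The contralateral cortex differed from sham in none of the 8 genes at any time. All-gene shares called were 0.0111%, 0.0332%, 0.238% and 0.111% at 3, 6, 12 and 24 h, unadjusted p-values under 0.05 numbered 0, 0, 3 and 0 among the 8, and DESeq2 called 0 each time. The 3 were at 12 h, where Tet3 was at -0.34 ± 0.13 (adjusted p = 0.428), Tet2 at -0.31 ± 0.14 (0.588) and Tdg at -0.30 ± 0.14 (0.611). The contralateral libraries of Tet3 at 12 h all lay below all sham libraries, and so did those of Tet2 at 33.0, 38.2 and 42.6 against 44.6, 46.1 and 50.6 CPM.

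Markers of cell types differed between the sides over the same hours, and their part in the values above was not tested. Their counts are to be read against the shares of all tested genes. At 6, 12 and 24 h 5.85%, 7.94% and 9.74% of all genes rose and 2.14%, 4.30% and 9.36% fell. Of 11 neuron markers 3 fell at 6 h (0 to 2 when 1 library was left out), 3 at 12 h (2 to 3) and 7 at 24 h (7 to 8), and their summed level at 24 h was 3640 to 4130 CPM on the ipsilateral and 5500 to 5830 CPM on the contralateral side. The summed level at 12 h, when Tet3 and Tdg differed most, was 4110 to 4530 against 5270 to 5550 CPM. Of 15 markers of dividing cells 0 rose at 6 h, 1 at 12 h and 4 at 24 h, with a summed level at 24 h of 52.7 to 59.5 against 36.1 to 52.0 CPM. The 4 were 2 without contralateral replicate 2. Of 10 tested monocyte and macrophage markers 5 rose at 24 h, or 2 without contralateral replicate 2 and 2 without both libraries that stood apart, and the summed level of all 11 markers listed, 1 of them below the filter on low counts, was 39.1 to 136 against 23.4 to 33.5 CPM. Of 7 resting microglia markers 2 fell at 6 h (0 to 2 when 1 library was left out). At 12 h 3 fell (1 to 4) and at 24 h 4 fell (2 to 4). Their summed levels at 6 h were 151 to 166 CPM on the ipsilateral and 174 to 213 CPM on the contralateral side. At 12 h they were 147 to 181 against 186 to 237 CPM, again without overlap. At 24 h the summed levels overlapped, at 117 to 188 and 107 to 192 CPM. No marker of these 4 lists was at 0 in all libraries of either side at 24 h. Neuron markers were present in every group, as in any brain tissue, and do not tell cortex from other regions. Of the lists that bear on dissection, 11 striatal neuron markers summed to 193 to 716 CPM over all libraries, with overlapping ranges between the sides at each time, and none was called between the sides. Summed levels of 9 choroid plexus markers varied widely, from 159 to 1260 CPM in the ipsilateral and 163 to 253 CPM in the contralateral cortex at 3 h, and from 140 to 625 and 173 to 750 CPM at 6 h. At 12 h they were 128 to 142 against 224 to 357 CPM and at 24 h 115 to 171 against 199 to 511 CPM, lower on the ipsilateral side without overlap, although none of the 9 was called at any time. The part of dissection in the differences of the 8 genes was not tested.

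Partners of these enzymes were taken from lists of textbook members, and their counts are to be read against the shares of all genes called above, which were 0.249%, 7.99%, 12.2% and 19.1% at 3, 6, 12 and 24 h. Among 14 regulators of the methyltransferases and TET enzymes, none rose at 3 h, 1 did at 6 h, 4 did at 12 h and 2 did at 24 h, and 1 fell, at 12 h. The median log2 difference was 0.16 at 6 h, -0.03 at 12 h and 0.00 at 24 h, and the 4 risen genes at 12 h were 2 to 3 when 1 library was left out, with 2 without contralateral replicate 1. The 2 at 24 h were 1 to 3, with 1 without contralateral replicate 1. Uhrf1, which brings DNMT1 to freshly replicated DNA, rose 3.59-fold at 12 h (1.84 ± 0.863 against 0.517 ± 0.279 CPM, SD, n = 3, adjusted p = 0.00128) and 3.44-fold at 24 h (2.76 ± 0.438 against 0.798 ± 0.0277 CPM, adjusted p = 0.000778). It was thus high at 24 h, when Dnmt1 was low, although at a low level throughout. Its relative Uhrf2, which binds hydroxymethylated cytosine, rose 1.45-fold at 6 h, from 28.3 ± 2.23 to 40.9 ± 5.21 CPM (adjusted p = 0.00444). Cxxc5, a CXXC protein known to bind and restrain TET2, rose 1.65-fold at 12 h (adjusted p = 0.00197). Ogt, whose enzyme binds TET proteins and adds sugar to them, fell at 12 h from 302 ± 12.0 to 215 ± 5.03 CPM (adjusted p = 0.0319), a call that was lost without each 1 of the 6 libraries in turn, at adjusted p of 0.054 to 0.117. Dnmt3l, a cofactor of the DNMT3 enzymes, was listed at 0.616 ± 0.0666 against 0.133 ± 0.0899 CPM at 12 h, and its call (adjusted p = 0.0298) was kept without contralateral replicate 2 and lost without each of the other 5 libraries, at 0.0548 to 0.133.

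Among 14 tested genes of base excision repair and active demethylation, 1 rose after 3 h, 2 did after 6 h and 12 h each, and 4 did after 24 h, and none fell. The median of this list was 0.13 at 6 h, 0.11 at 12 h and 0.09 at 24 h. Gadd45b and Gadd45g, stress-induced adaptors linked to repair-based demethylation, had the largest changes of the list at 6 and 12 h. Gadd45b rose 4.90-fold at 6 h, 4.86-fold at 12 h and 3.98-fold at 24 h. Its 2.30-fold rise at 3 h (adjusted p = 0.0456, and 0.07 with the replicate block) was kept without contralateral replicate 2 and lost without each of the other 5 libraries, at 0.0562 to 0.249. At 6 h it stood at 26.9 ± 5.37 CPM against 5.50 ± 0.533 CPM (adjusted p = 4.31e-06). Gadd45g rose 3.66-fold at 6 h (adjusted p = 0.000698), 4.65-fold at 12 h and 4.14-fold at 24 h. The 12 h rise of Gadd45g was not past the threshold in a fit of only the groups compared (adjusted p = 0.0653). Apobec1, a cytidine deaminase, rose 4.41-fold at 24 h, from 0.768 ± 0.0669 to 3.40 ± 1.77 CPM (adjusted p = 0.000393).

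**Figure D4:**
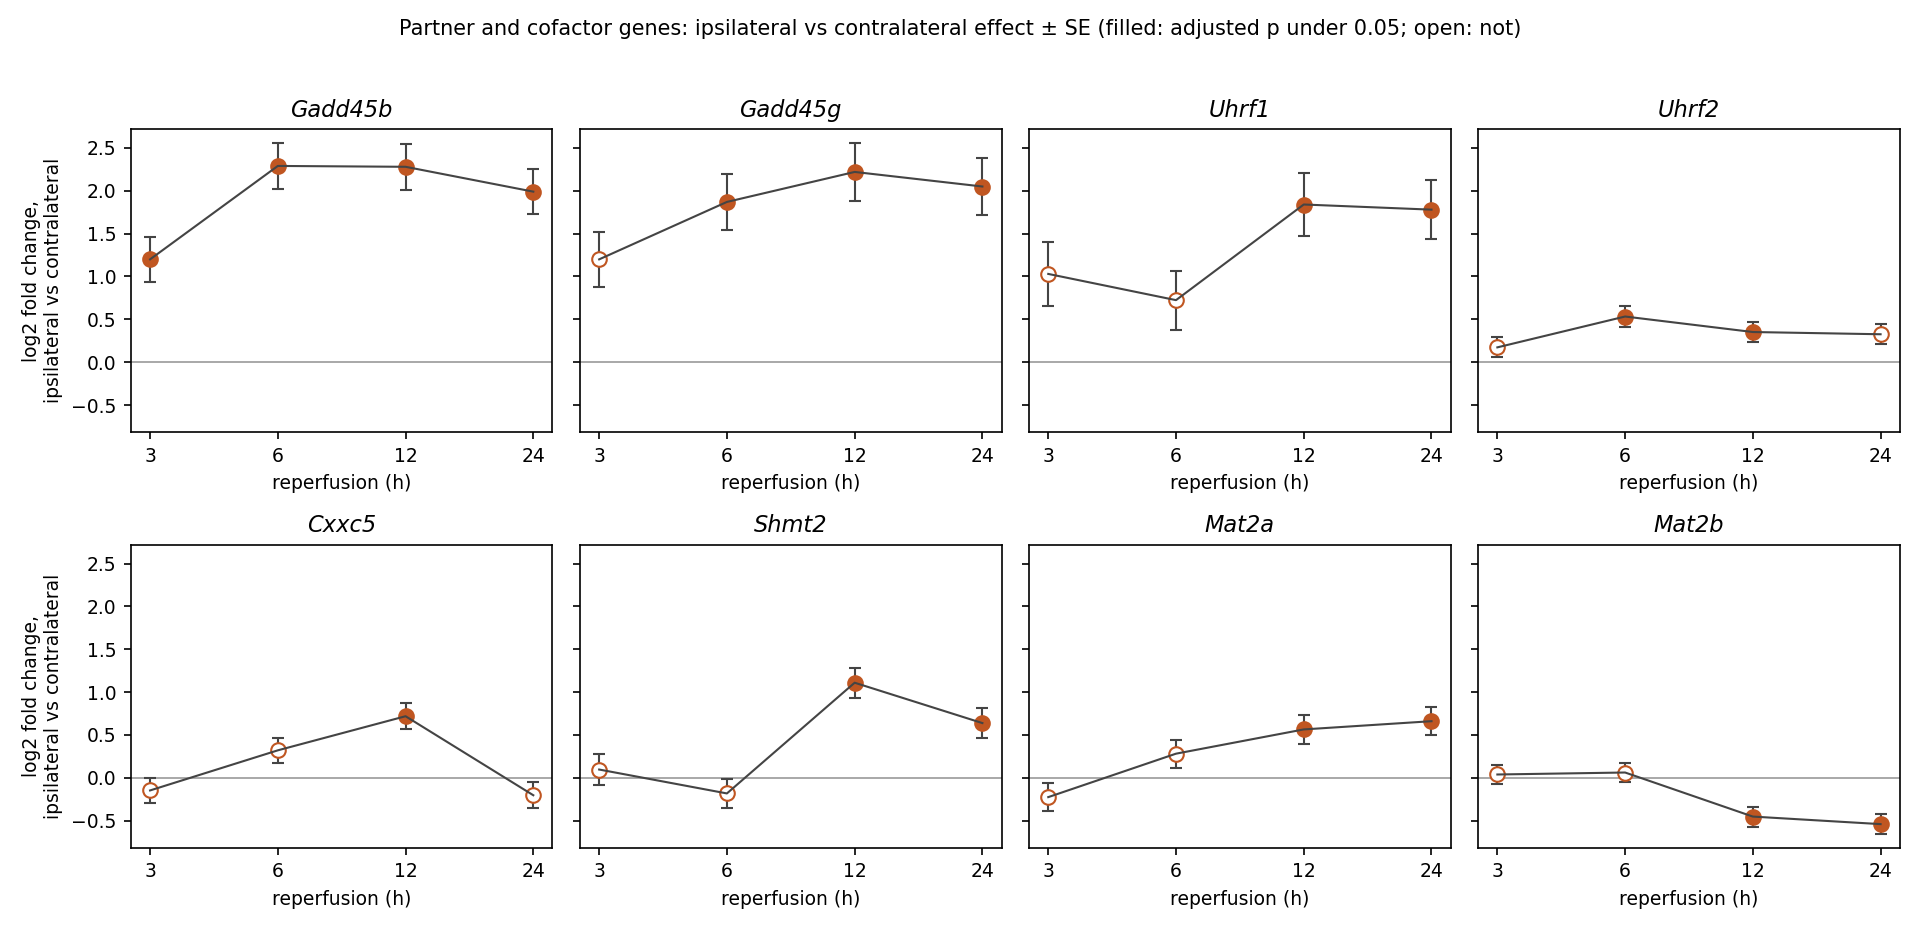
Log2 fold change of the ipsilateral over the contralateral cortex ± SE (vertical axis) against reperfusion time in hours for 8 partner and cofactor genes, with filled points where the adjusted p was under 0.05. Gadd45b is at 2.29 at 6 h and Uhrf1 at 1.84 at 12 h, and Cxxc5 and Shmt2 have their highest points at 12 h.

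Of 9 other methyl-CpG readers 1 rose at 6 h, 1 at 12 h and 1 at 24 h, and 1 fell at 24 h. Each of the 3 rises was lost without at least 1 library. The fall was that of Zbtb4, a zinc finger reader, from 111 ± 0.673 to 82.7 ± 4.30 CPM at 24 h (adjusted p = 0.00326). Of 11 NuRD subunits, through which MBD2 acts, 1 rose at 12 h and none at 3, 6 or 24 h. It was Mta2, at 42.7 ± 4.39 against 29.8 ± 1.08 CPM (adjusted p = 0.00806), a call lost without ipsilateral replicate 1, at an adjusted p of 0.0747.

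Of 14 genes that supply the methyl donor or 2-oxoglutarate, 1 rose at 6 h, 3 rose and 1 fell at 12 h, and 2 rose and 2 fell at 24 h. The list medians were -0.07, -0.08 and -0.01 at these times. These counts lie near the share of all genes called. With 1 library left out the rises were 0 to 1 at 6 h, 2 to 3 at 12 h and 1 to 4 at 24 h, and the falls 0 to 2 at 12 h and 1 to 2 at 24 h. Shmt2, the mitochondrial serine hydroxymethyltransferase, rose 2.17-fold at 12 h (adjusted p = 9.24e-05) and 1.56-fold at 24 h (adjusted p = 0.0101). The 2 subunits of the enzyme that makes S-adenosylmethionine went opposite ways at 24 h. Mat2a, the catalytic one, rose from 93.6 ± 13.1 to 148 ± 30.0 CPM (adjusted p = 0.00602, and 0.0526 without ipsilateral replicate 3). Mat2b, the regulatory one, fell from 109 ± 9.60 to 74.7 ± 9.69 CPM (adjusted p = 0.00178).

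Other textbook targets of miR-29 were set beside the Dnmt3 and Tet genes. Of 19, 4 rose at 6 h, 4 at 12 h and 5 at 24 h, and none fell, with medians of 0.19, 0.22 and 0.28. The 4 at 12 h were 1 without contralateral replicate 3. Of all tested genes 5.85%, 7.94% and 9.74% rose and 2.14%, 4.30% and 9.36% fell at 6, 12 and 24 h. Their medians were -0.02, -0.01 and 0.03. Mcl1, which encodes an antiapoptotic BCL2 protein, rose by 1.58-fold (6 h), 1.67-fold (12 h) and 1.64-fold (24 h) (adjusted p = 0.000142, 2.94e-05 and 4.18e-05). Bcl2l11, its proapoptotic relative BIM, rose 2.09-fold at 6 h (adjusted p = 0.000595). The collagens Col5a3 and Col4a1 rose 3.64-fold and 2.76-fold at 24 h (adjusted p = 8.28e-05 and 0.00046). Over all genes, 9.92% of 504 genes with an 8mer rose at 6 h, beside 5.83% of 12693 genes with no site, and at 12 h the shares were 14.1% and 8.11%. At 3 h the shares that rose were 0% and 0.268%, and at 24 h 13.9% and 10.1%. The shares that fell were 2.58% and 2.4% at 6 h, 3.77% and 4.86% at 12 h, and 8.13% and 10.8% at 24 h. The 50 risen 8mer genes at 6 h were 16 without ipsilateral replicate 2, when the 740 risen genes with no site were 318, and the 71 at 12 h were 33 without ipsilateral replicate 1, when the 1029 with no site were 493. The median UTR of the first set was 2637 bases and of the second 931 bases, so the sets differ in length too, and the part of miR-29 was not tested. Among the 8 genes at 6 h, Tet3 with 10 sites was at 0.59 and Tet1 with 8 sites at -0.06. Dnmt3a with 6 sites was at 0.32, Tet2 with 5 at 0.28, Tdg with 3 at 0.31 and Dnmt3b with 2 at -0.36. Dnmt1 and Mbd2, which held no site, were at -0.15 and 0.09.

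Across the 27 libraries the log2 CPM of Dnmt3a and Tet3 had the highest Pearson correlation of any pair among the 8, at 0.79, followed by Tet3 and Tdg at 0.68. Dnmt1 ran against Tdg at -0.50. Of 10908 other genes with a mean of at least 5 CPM, those most like Tet3 were Klf10 (0.867), Hivep3 (0.853) and Stk40 (0.852), and Hivep3 (0.866) was also the one most like Dnmt3a. Csnk1d (0.89) was most like Tdg, Pnkd (0.939) most like Dnmt1 and Mvp (0.829) most like Mbd2. These values describe points that share libraries, depth and, in replicate 1 of the contralateral cortex at 3 h, a GC trend.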

How the data were processed

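Total RNA depleted of ribosomal RNA was sequenced in 27 libraries, 3 in each of 9 groups. The authors deposited raw counts per gene. Per the submitters' processing notes the tools were STAR 2.5.0a, featureCounts 1.4.3-p1 and edgeR (no version), and the build was mm10. Which annotation and strand setting served for counting is not given in the sources used here.

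From these counts, filterByExpr (at least 10 counts, total at least 15) chose the genes, and TMM scaled the libraries. A single quasi-likelihood fit in edgeR 4.0.16 (R 4.3.3) took in the 27 libraries, with 1 mean per group, 18 residual degrees of freedom and a common biological coefficient of variation of 0.175. P-values were adjusted by the Benjamini-Hochberg method over all 18087 tested genes, with a threshold of 0.05. SE were derived from the test statistic. Fitting was tested on simulated counts. Alternatives were DESeq2 1.42.0 and its size factors, other filters, abundant RNAs left out, only the groups compared, a GC offset, replicate blocks, and libraries left out singly or as the pair that stood apart.

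Replicate numbers were taken as days of surgery from the series' design text. The replicate block assumes that the same number stands for the same day in every group. Residuals of log2 CPM correlated at a mean of 0.047 over 108 pairs with the same number and -0.024 over 216 pairs with other numbers. Because each group was centred on its own mean, the second value largely follows from the first and is no separate baseline.

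Of 22340 symbols 22161 were matched to GENCODE release M21 on mm10, 693 through an older symbol. Lengths are those of the longest basic transcript, and sites were searched in the longest 3' UTR. Mature microRNAs came from RefSeq.

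The members and lists were chosen with earlier results of these data known. The 8 genes were followed in every comparison, and up to 3 called genes per list, direction and time were open to naming, of which the text names those with the clearest roles. For likeness the 3 highest correlations of each gene were taken. Library depth (26505996 to 48830897 counts) limits Dnmt3b. The values of 1 gene of the methyl donor list are not reported here.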

Additional observations from a re-analysis of the deposited data

Results flagged for a closer look

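In edgeR's quasi-likelihood test with Benjamini-Hochberg adjustment, the difference between the sides differed among the 4 times in 1.34% of all genes and between 3 and 24 h in 3.32%. None of the 8 methylation genes was among them, but the following partner genes and miR-29 targets were. The side difference of Shmt2 was not the same at all 4 times (adjusted p = 0.0127), with log2 values of 0.10, -0.18, 1.11 and 0.64 at 3, 6, 12 and 24 h. That of Cxxc5 also differed between times (adjusted p = 0.0388), with 0.72 at 12 h and -0.20 at 24 h. From 3 to 24 h the side difference of Mat2a grew by 0.89 (adjusted p = 0.0368) and that of Apobec1 by 2.09 (adjusted p = 0.0389). That of the laminin gene Lamc1, a listed miR-29 target outside the rule for naming genes, grew by 0.62 (adjusted p = 0.0383). That of Mat2b fell by 0.58 (adjusted p = 0.0479). For these genes, neither test was repeated with libraries left out or with other processing. Both use the contralateral group at 3 h, which holds the library that stood apart in its GC trend.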

How the results depend on the processing

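The counts of the 8 genes called that moved by over 1.5 times were these. For the sides at 6 h the count was 2 in place of 1, with Dnmt3a added, with a filter of at least 1 CPM, with only the groups compared, without the 2 libraries that stood apart, with the GC offset, with that offset and the replicate block, and with DESeq2. At 12 h it was 4 without the 2 libraries, and at 24 h it was 1 with only the groups compared. For the ipsilateral cortex against sham at 6 h it was 1, Tet3, in place of 0 under the same 6 settings and with the replicate block. At 12 h against sham it was 2 with only the groups compared, 2 without the 2 libraries and 1 with DESeq2. Smaller moves were 3 in place of 2 against sham at 24 h without the 2 libraries, with Tdg added (0.47, adjusted p = 0.00971), and 6 in place of 5 for the mean of the times, with Tet2 added, with the filter of at least 1 CPM, the replicate block, and that block with the GC offset. Without the 2 libraries, values turned sign for Dnmt1 between the sides at 3 h (-0.13) and in the contralateral cortex against sham at 3 h (0.02), and for Tet1 in the latter (-0.04).

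Leaving out 1 library at a time, the counts ranged from 1 to 2 at 6 h, 2 to 3 at 12 h and 0 to 2 at 24 h between the sides, and from 3 to 6 for the mean of the times. They ranged from 0 to 1 for the change from 3 to 24 h. Against sham they ranged from 0 to 1 at 6 h, 0 to 1 at 12 h and 0 to 3 at 24 h. Uncalled values that turned sign ranged from -0.13 to 0.26 (Dnmt1, sides, 3 h), -0.16 to 0.02 (Dnmt3a, sides, 3 h), -0.15 to 0.07 (Tet1, sides, 12 h) and -0.06 to 0.26 (Tet2, sides, 24 h). Against sham at 3 h the contralateral values ranged from -0.36 to 0.02 (Dnmt1) and -0.04 to 0.29 (Tet1). Of 38 calls of named partner genes, 23 remained without any 1 library and 15 did not.

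With the replicate block the changes were that Tet3 at 6 h against sham (adjusted p = 0.0439) and the mean of Tet2 (0.0492) passed and Gadd45b at 3 h did not (0.07). With a block within each time Dnmt3l did not pass at 12 h (0.0526) or 24 h (0.0749). The block changed no other call among the values followed. RLE size factors changed no call, nor did leaving out abundant RNAs. The cause of these moves was not tested.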
